A study of Mus musculus with 24 samples.

Results

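A block of 2 neighbouring 100 kb bins on mouse chromosome 12 that holds Srp54b, Srp54c and Ppp2r3c carried different amounts of input DNA in the 4 sex and genotype groups of the cells studied, and the amounts of H2AX and gH2AX over it differed in the same way. The window was taken as the 8 bins of 100 kb from chr12:54800001-55600000 (build mm10), of 27268 bins in the table. It consists of the 2 bins of the block and of 3 flanking bins on each side. The block was chosen from measured values, namely the change of read counts between KO and WT cells at this place, so those changes are given as a description with no test. The 3 genes were chosen with it. A bin value is not specific to a gene.

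The libraries came from primary mouse embryonic fibroblasts (MEFs) of strain C57BL6, either SIRT7-KO or WT, of both sexes. SIRT7 is a NAD-dependent deacetylase of the sirtuin family. All cells, WT included, had received 5 Gy of X-rays and recovered for 30 min, and no unirradiated library was analysed here. The 12 groups of 2 libraries were the gH2AX, H2AX and input libraries of female KO, female WT, male KO and male WT cells. The labels name neither the construct of the knockout nor the number of animals or cultures behind a group. Every p-value therefore measures only the spread between these libraries, and a difference between KO and WT cells of one sex cannot be told apart from a difference between the animals or cultures used. No batch is named in the labels.

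Each library held 63.7 M to 253 M autosomal reads. Reads on chromosome X came to 6.27% to 6.31% of autosomal reads in female input and to 3.45% to 3.47% in male input, as the labels of sex state. The bin of Sirt7 (chr11:120600001-120700000) had 34.6 to 37.7 CPM (reads per 1000000 autosomal reads, with TMM scaling) in KO input and 34.4 to 36.5 in WT input, and a bin of this size cannot show a deletion within the gene. Fibroblast identity could not be checked, since no expression was measured.

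The signal recognition particle binds the signal sequence of a nascent secretory protein and brings the ribosome to the membrane of the endoplasmic reticulum. Its GTPase subunit SRP54 makes the contact with the signal sequence, and in the mouse reference genome it is encoded by tandem gene copies. Ppp2r3c encodes a regulatory subunit of protein phosphatase 2A (PP2A), a serine/threonine phosphatase. H2AX is the histone variant that is phosphorylated to gH2AX in the chromatin around a DNA double-strand break, and PP2A is among the phosphatases that remove this phosphate. Tandem copies of near-identical sequence are frequent sites of copy number differences between mouse stocks.

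In the RefSeq annotation of GRCm38.p6 the block held most of a set of repeated gene copies. Srp54b (gene 665155) spans chr12:55155104-55189213 and lies wholly in the first block bin, the 100 kb from chromosome 12 position 55100001. Srp54c (gene 100101806) spans chr12:55230118-55279331 and lies in the second, chr12:55200001-55300000. Ppp2r3c (gene 59032) spans chr12:55280809-55303239, of which 85.6% is in the second bin and the rest in the flank. Besides Srp54b and Srp54c, the repeated copies are Srp54a at chr12:55080476-55115367, Fam177a at chr12:55124435-55142104, Fam177a2 at chr12:55199264-55217168, and the predicted genes Gm2436 at chr12:55141072-55154918 and Gm2446 at chr12:55216136-55229982. Ppp2r3c is not one of them.

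The starts of neighbouring copies were about equally far apart. Srp54a and Srp54b started 74628 bases from each other, and Srp54b and Srp54c 75014 bases. The distance was 74829 bases between Fam177a and Fam177a2 and 75064 bases between Gm2436 and Gm2446. Genes with such a copy covered 80.7% of the first block bin, 79.2% of the second and 19.5% of the flanking bin next to the first, where Srp54a begins, and none of the other 5 flanking bins. Neither the sources nor the files used here state how reads with several alignments were counted, so reads of Srp54a, Srp54b and Srp54c may have been placed on one another and the 3 copies cannot be told apart.

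The promoter sequences show runs of bases that the copies have in common. Each is the stretch from RefSeq (GRCm38.p6) of 250 bases before to 50 after the start used there, printed 5′ to 3′ on the gene's strand, and capitals mark the 48 bases that the 3 Srp54 stretches have in common.
Srp54a (plus strand, chr12:55080246-55080545): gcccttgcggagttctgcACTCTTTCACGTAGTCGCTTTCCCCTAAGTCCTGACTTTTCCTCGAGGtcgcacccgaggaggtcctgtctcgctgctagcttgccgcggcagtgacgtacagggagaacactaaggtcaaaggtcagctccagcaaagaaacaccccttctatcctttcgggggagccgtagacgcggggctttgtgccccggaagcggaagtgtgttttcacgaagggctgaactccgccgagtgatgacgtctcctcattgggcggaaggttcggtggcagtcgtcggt
Srp54b (plus strand, chr12:55154854-55155153): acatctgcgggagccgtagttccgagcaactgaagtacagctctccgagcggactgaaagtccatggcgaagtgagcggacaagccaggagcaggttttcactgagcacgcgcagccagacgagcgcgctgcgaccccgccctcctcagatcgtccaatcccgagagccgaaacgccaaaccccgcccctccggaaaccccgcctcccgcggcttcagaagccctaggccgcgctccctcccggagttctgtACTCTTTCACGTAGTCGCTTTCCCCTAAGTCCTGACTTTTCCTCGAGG
Srp54c (plus strand, chr12:55230127-55230426): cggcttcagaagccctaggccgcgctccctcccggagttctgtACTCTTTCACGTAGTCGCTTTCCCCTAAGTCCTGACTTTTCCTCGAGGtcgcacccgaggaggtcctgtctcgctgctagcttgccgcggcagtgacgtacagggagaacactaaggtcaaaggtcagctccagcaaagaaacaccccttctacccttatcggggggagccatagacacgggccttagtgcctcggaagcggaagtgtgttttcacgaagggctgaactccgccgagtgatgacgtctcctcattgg
Ppp2r3c (minus strand, chr12:55302951-55303250): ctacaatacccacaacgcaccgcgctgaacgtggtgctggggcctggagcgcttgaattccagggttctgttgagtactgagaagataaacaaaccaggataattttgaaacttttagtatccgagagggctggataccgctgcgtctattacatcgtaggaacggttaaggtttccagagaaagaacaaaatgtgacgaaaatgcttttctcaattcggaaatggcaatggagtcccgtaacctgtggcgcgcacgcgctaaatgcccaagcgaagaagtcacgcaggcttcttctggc

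The common run stands at bases 19 to 66 of the Srp54a stretch, 253 to 300 of that of Srp54b and 44 to 91 of that of Srp54c, because the annotated starts of the copies differ. The longest identical run was 153 bases between Srp54a and Srp54c, 91 between Srp54b and Srp54c, and 48 between Srp54a and Srp54b. Ppp2r3c, shown as the gene of the block with no annotated copy, shared no more than 8 bases in a row with any of them. Each promoter holds 251 stretches of 50 bases. Of these, 162 (64.5%) in Srp54c, 119 (47.4%) in Srp54a and 64 (25.5%) in Srp54b also stood in another gene's promoter, against 0 in Ppp2r3c. A match was counted letter for letter on either strand, in promoters that do not overlap the one the stretch came from. All matching genes lie in the same window. The stretch of Srp54b ends with the common run, and the 91-base run starts at the first base of the Srp54c stretch. The runs with Srp54b are thus cut off by the ends of the stretches. The shares also depend on where the annotated starts lie, so neither measures how alike the whole copies are.

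Input libraries, which are sheared chromatin without antibody, measure the DNA dosage. In the Srp54b bin, female KO input had 40.9 and 40.3 CPM, against 31.6 and 30.3 in female WT input. The Srp54b bin of male KO input had 24.5 and 22.8 CPM, against 39.2 and 40.2 in male WT input. Female KO was thus above female WT, male KO was below male WT, and in neither sex did the libraries of the genotypes overlap. The bin that holds Srp54c and most of Ppp2r3c had 38.5 and 39.1 CPM in female KO input, against 33.8 and 33.5 in female WT input. It had 28.8 and 29.7 in male KO input, against 39.4 and 39.7 in male WT input. Female WT and male KO were again below the other groups, and the differences were smaller than in the Srp54b bin.

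The flanking genes showed no such spread. They include Cfl2, a muscle cofilin, Baz1a, a subunit of the ACF chromatin remodeller, Prorp, the nuclease subunit of mitochondrial RNase P, Psma6, a subunit of the proteasome, and Nfkbia, the inhibitor of NF-kappaB. Their 6 bins had 35.0 to 41.4 CPM over all 8 input libraries, and the female KO and male WT values of the block lay within that range. The Aldoart2 and Insm2 bin at the far end, for example, averaged 38.6 ± 0.929 CPM in female KO input and 38.2 ± 0.0801 in female WT input, and 38.2 ± 0.652 in male KO input and 38.5 ± 1.202 in male WT input (SD, n = 2 each).

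**Figure D1:**
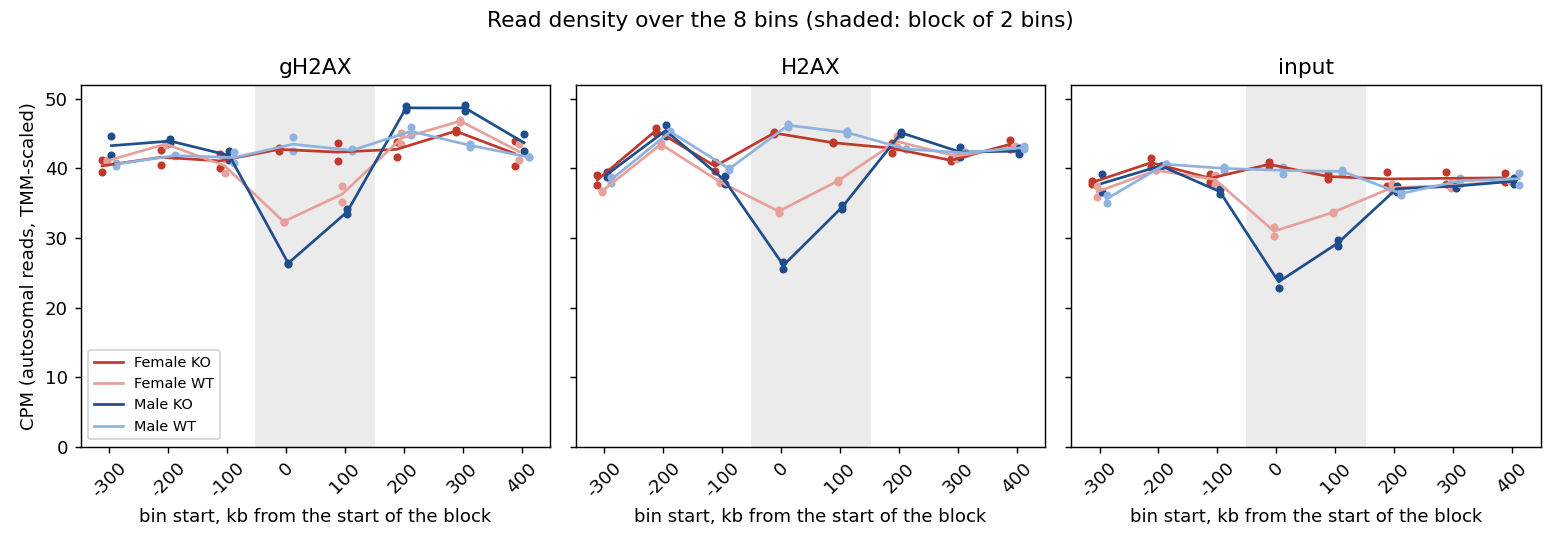
CPM (vertical axis, reads per 1000000 autosomal reads, TMM-scaled) in the 8 bins of 100 kb (horizontal axis, start of the bin in kb from the start of the block) for gH2AX, H2AX and input libraries. Points are libraries, lines join the means of 2 libraries, and the grey area is the block. Male KO libraries, at 22.8 to 34.8 over the block in the 3 panels, are lowest there, with female WT next and female KO and male WT highest.

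The block was also set against its own surroundings in each library, as the mean reads of the 2 block bins over the mean reads of the 6 flanking bins, a ratio that needs no scaling between libraries. In input this ratio was 1.02 and 1.02 in female KO, against 0.871 and 0.833 in female WT. It was 0.701 and 0.695 in male KO, against 1.02 and 1.05 in male WT. Relative to the flank, then, female KO and male WT input held about as many reads in the block as beside it, and female WT and male KO input held fewer.

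As group means the ratio was 1.02 ± 0.00229 in female KO and 0.852 ± 0.0267 in female WT input, and 0.698 ± 0.00451 in male KO and 1.04 ± 0.0216 in male WT input (SD, n = 2 each). Female KO was at 120% of female WT, and male KO at 67.3% of male WT. Female WT was at 82.1% of male WT, so the WT cells of the sexes did not match each other at this block either, and their libraries did not overlap. Female KO was at 98.6% of male WT, and these libraries overlapped. Neighbours in the order male KO, female WT, female KO and male WT were hence separate except for the last pair. No whole copy number was assigned, since the counts are relative and the copies share sequence.

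**Figure D2:**
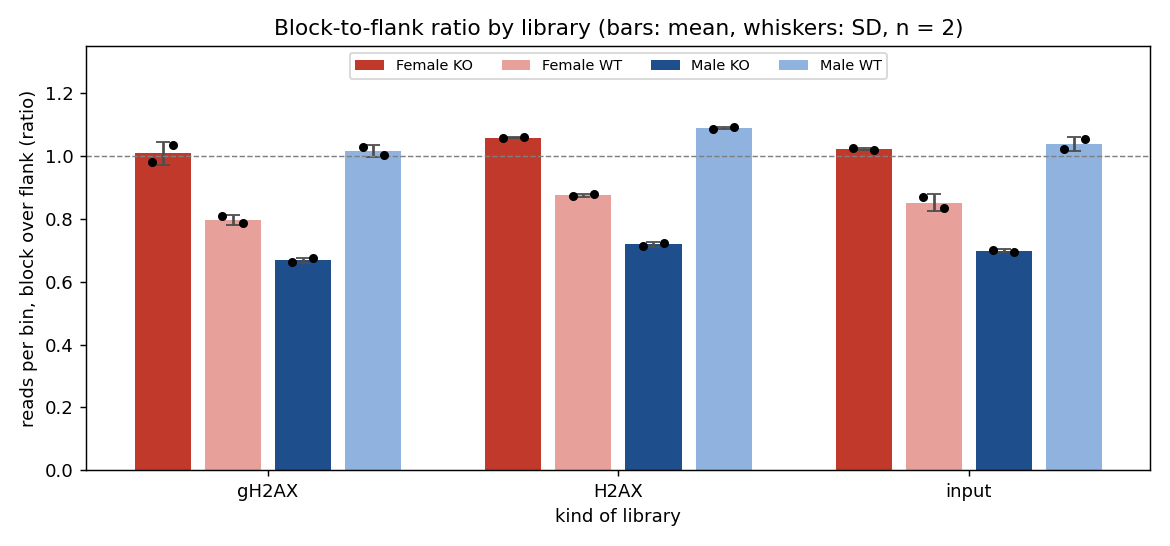
Mean reads of the block bins over mean reads of the flanking bins (vertical axis, ratio) in gH2AX, H2AX and input libraries. Bars are means of 2 libraries, whiskers the SD and points the libraries, and the dashed line marks a ratio of 1. The KO bar is above its WT bar in females and below it in males for each kind of library, at 120% and 67.3% of WT in input.

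Fitted with edgeR over the 25703 bins tested, the Srp54b bin differed between KO and WT input by 0.39 ± 0.03 (log2, SE) in females and by -0.76 ± 0.04 in males, which are folds of 1.31 and 0.592. The Srp54c and Ppp2r3c bin differed by 0.21 ± 0.03 in females and by -0.43 ± 0.03 in males, folds of 1.15 and 0.742. By absolute size these were the changes of rank 19 and 32 of 25703 in females and of rank 3 and 6 in males. As background, 47 bins (0.183%) were called at an adjusted p under 0.05 in female input and 57 (0.222%) in male input.

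The change was smaller outside the block, and bins of 100 kb cannot place its edges more finely. The bins just outside the block, which were not members by the rule, changed less than the block bins. The bin of Prorp and Psma6 changed by 0.05 ± 0.03 in females and 0.03 ± 0.03 in males. The bin on the other side, where Srp54a begins, changed by 0.01 ± 0.03 in females and -0.13 ± 0.03 in males. This male value is the lowest of the 6 in male input, and that bin is the one flanking bin with a part of the repeated gene copies. The 6 flanking bins changed by 0.01 to 0.06 in female input and by -0.13 to 0.08 in male input.

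H2AX libraries showed the same order as input. The block-to-flank ratio was 1.06 and 1.06 in female KO H2AX, against 0.872 and 0.878 in female WT H2AX. It was 0.713 and 0.724 in male KO H2AX, against 1.09 and 1.09 in male WT H2AX. KO and WT libraries again did not overlap in either sex, and here female KO lay below male WT without overlap.

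In gH2AX libraries the block-to-flank ratio was 0.982 and 1.03 in female KO, against 0.808 and 0.785 in female WT. In male KO gH2AX it was 0.661 and 0.674, against 1.03 and 1.00 in male WT gH2AX. The genotypes were separate in both sexes, with female KO and male WT overlapping as in input. Male KO was at 65.8% of male WT in gH2AX, 66.0% in H2AX and 67.3% in input. The flanking bins themselves rose by 0.01 to 0.17 (log2) in male gH2AX, which lowers this ratio. Scaled by autosomal bins instead, the male gH2AX fold over both block bins was 0.694. Female KO was at 126% of female WT in gH2AX, 121% in H2AX and 120% in input.

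Bin by bin, the Srp54b bin changed between KO and WT by 0.40 ± 0.04 in gH2AX, 0.41 ± 0.04 in H2AX and 0.39 ± 0.03 in input of females (log2, SE). In males the same bin changed by -0.72 ± 0.04 in gH2AX, -0.83 ± 0.04 in H2AX and -0.76 ± 0.04 in input. The Srp54c and Ppp2r3c bin changed by 0.22 ± 0.04, 0.19 ± 0.03 and 0.21 ± 0.03 in gH2AX, H2AX and input of females. In males it changed by -0.33 ± 0.04 in gH2AX, -0.38 ± 0.03 in H2AX and -0.43 ± 0.03 in input. Averaged over both bins, the KO over WT folds were 1.24 in gH2AX, 1.23 in H2AX and 1.23 in input of females, and 0.694 in gH2AX, 0.657 in H2AX and 0.663 in input of males.

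These changes are again descriptions, printed beside the share of all bins called in the same comparison. It was 1.01% for gH2AX in females, 0.152% for H2AX in females, 44.7% for gH2AX in males and 0.191% for H2AX in males. The male gH2AX comparison is thus one in which much of the genome differed. Its flanking bins here changed by 0.01 to 0.17, against -0.06 to 0.03 in female gH2AX, -0.05 to 0.08 in male H2AX and -0.03 to 0.08 in female H2AX.

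Whether the marks followed the DNA was tested as the KO to WT change of the ratio of a mark to input, in an edgeR fit of all 24 libraries with Benjamini-Hochberg adjustment over 25703 bins. The KO to WT changes of input, H2AX and gH2AX are the contrasts that chose the block. The same libraries enter this ratio, so a ratio change near 0 is no independent evidence that the marks follow the DNA. For H2AX over input in females, the ratio changed by 0.03 (95% interval -0.07 to 0.13) in the Srp54b bin and by -0.01 (-0.11 to 0.09) in the Srp54c and Ppp2r3c bin, both with an adjusted p of 0.995 by edgeR. In males it changed by -0.08 (-0.18 to 0.03) and 0.05 (-0.05 to 0.15), with adjusted p-values of 0.760 and 0.875 by edgeR. No block bin was called, and none of these intervals reached the size of the input change of its bin. Over all bins, 0% were called in females and 0.0311% in males. The female count of 0 by edgeR went with 1266 bins at an unadjusted p under 0.05, and DESeq2 called 0 as well, with 1189 bins at that level.

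For gH2AX over input, the Srp54b bin changed by 0.01 (-0.09 to 0.12) in females and by 0.03 (-0.07 to 0.13) in males, with adjusted p-values of 0.931 and 0.698 by edgeR. The Srp54c and Ppp2r3c bin changed by 0.02 (-0.08 to 0.12) in females, with an adjusted p of 0.910 by edgeR. In males it changed by 0.10 (-8.65e-05 to 0.20), with an adjusted p of 0.145. None of the 4 values passed the threshold, and all 4 intervals stayed short of the size of the input change. The share of all bins called was 0.389% in females and 19.6% in males. In males 2 of the 6 flanking bins were called, both higher in KO: that of Psma6 and Nfkbia by 0.19 ± 0.05 (adjusted p = 0.00234 by edgeR) and that next to the Srp54b bin, with Baz1a, 2700097O09Rik and the start of Srp54a, by 0.13 ± 0.05 (adjusted p = 0.0411).

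The ratio of gH2AX to H2AX is not independent of the choice either, since the contrasts of both marks also chose the block. As the phosphorylated form against the total variant, it needs no input library. It changed by -0.01 (-0.11 to 0.09) and 0.03 (-0.07 to 0.13) in the Srp54b bin and the Srp54c and Ppp2r3c bin of females, with adjusted p-values of 0.944 and 0.854 by edgeR. In males it changed by 0.11 (0.0046 to 0.21) and 0.05 (-0.05 to 0.15), with adjusted p-values of 0.102 and 0.420. No block bin passed in either sex, against 0.237% of all bins in females and 30.1% in males. The Psma6 and Nfkbia bin of the flank was called in males, at 0.17 ± 0.05 (adjusted p = 0.00468 by edgeR).

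**Figure D3:**
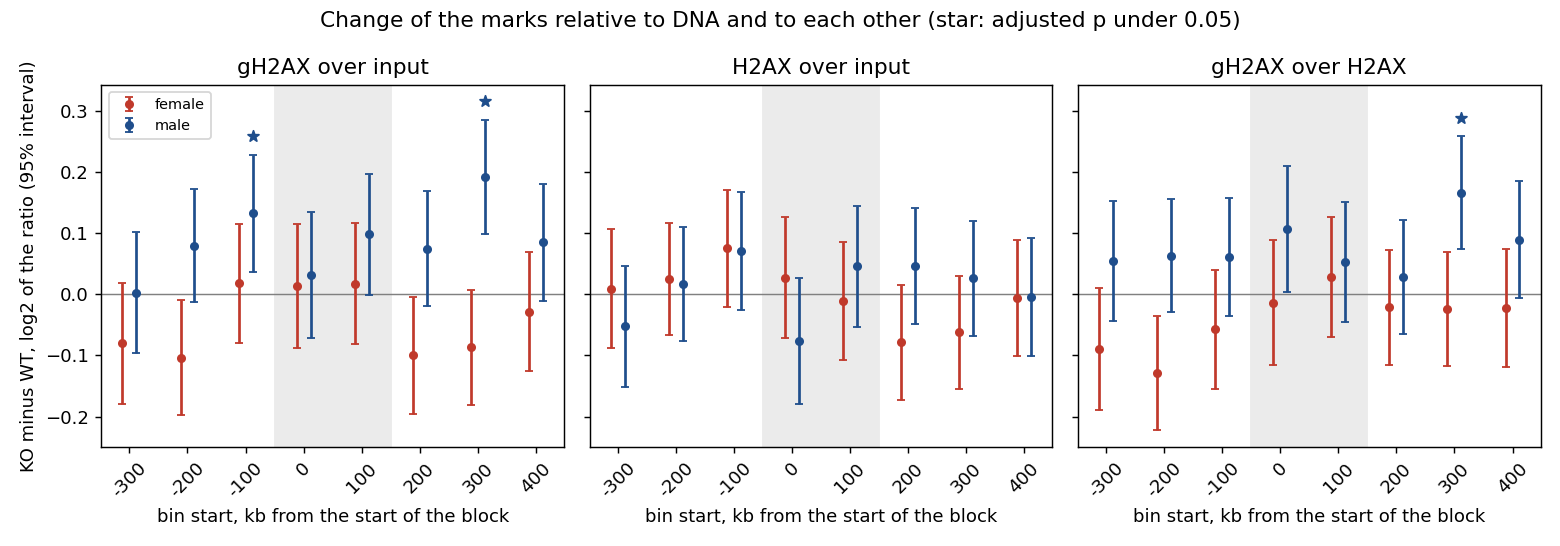
Change between KO and WT of gH2AX over input, H2AX over input and gH2AX over H2AX (vertical axis, log2) in the 8 bins (horizontal axis, start of the bin in kb from the start of the block), with females in red and males in blue. Points are edgeR estimates, bars 95% intervals, and stars mark an adjusted p under 0.05. The 4 block values of each panel lie between -0.08 and 0.11 and carry no star, and the 3 stars stand over male values of the flank.

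The KO effect on these ratios was also compared between the sexes. In the Srp54b bin the female minus male difference was 0.10 ± 0.07 for H2AX over input, -0.02 ± 0.07 for gH2AX over input and -0.12 ± 0.07 for gH2AX over H2AX, with adjusted p-values of 0.810, 0.884 and 0.202 by edgeR. In the Srp54c and Ppp2r3c bin it was -0.06 ± 0.07 for H2AX over input, -0.08 ± 0.07 for gH2AX over input and -0.02 ± 0.07 for gH2AX over H2AX, with adjusted p-values of 0.915, 0.410 and 0.817. No block bin was called, against 0.0195% of all bins for H2AX over input, 23.1% for gH2AX over input and 28.4% for gH2AX over H2AX. Of the flank, 3 of 6 bins were called lower for gH2AX over input, 2 of 6 for gH2AX over H2AX and 0 of 6 for H2AX over input. The shares of all bins count calls in either direction.

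The level of the marks over the block, set apart from the KO effect, was tested over all 4 sex and genotype groups. Relative to input and to the scaling by autosomal bins, H2AX was higher by 0.16 ± 0.02 (log2, SE) in the Srp54b bin and by 0.19 ± 0.02 in the Srp54c and Ppp2r3c bin, with adjusted p-values of 8.61e-16 and 7.44e-23 by edgeR. gH2AX was higher than input by 0.11 ± 0.02 and 0.14 ± 0.02, with adjusted p-values of 2.88e-08 and 1.21e-12. gH2AX was lower than H2AX by a log2 of -0.05 ± 0.02 and -0.06 ± 0.02, with adjusted p-values of 0.00823 and 0.00172. Such calls were common: 89.4% of all bins were called for H2AX over input, 86.6% for gH2AX over input and 75.1% for gH2AX over H2AX.

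Group by group, the estimates of both marks over input were above 0 in each of the 4 groups and both bins, and those of gH2AX in the Srp54b bin did not pass the threshold in female KO (adjusted p = 0.0590 by edgeR) or female WT (adjusted p = 0.132). H2AX over input was 0.15 in female KO and 0.12 in female WT, and 0.14 in male KO and 0.22 in male WT, in the Srp54b bin. In the Srp54c and Ppp2r3c bin it was 0.17 in female KO and 0.18 in female WT, and 0.24 in male KO and 0.19 in male WT. Male KO, with the least DNA over the block, was thus inside or above the range of the other groups. gH2AX over input was 0.07 in female KO and 0.06 in female WT, and 0.16 in male KO and 0.13 in male WT, in the Srp54b bin. It was 0.12 in female KO and 0.11 in female WT, and 0.21 in male KO and 0.11 in male WT, in the other bin.

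Against its own flank the block was tested by exact permutation (two-sided) of the log2 block-to-flank ratio, with libraries exchanged within the sex and genotype groups (1296 arrangements, smallest possible p 0.00154). H2AX exceeded input by 0.05 on average, in 4 of 4 groups (exact p = 0.00154). gH2AX was below input by a mean log2 of -0.05, with 0 of 4 groups higher (exact p = 0.00926). gH2AX was below H2AX by a mean log2 of -0.10, again with 0 of 4 groups higher (exact p = 0.00154). The gH2AX difference to input lost its call when the outermost bin on each side served as flank (-0.03, exact p = 0.168). The flanking bins were themselves at 0.08 to 0.28 for gH2AX over input and at 0.03 to 0.23 for H2AX over input, so that the sign of the gH2AX value turns on whether autosomal bins or the flank are the standard. Both block bins lay within these ranges. Other places of the genome were not tested in this way, so these p-values do not mark a trait particular to the block.

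Other genes of the same pathways were taken at their own loci. The lists held signal recognition particle and translocon genes (20 bins outside the window) and PP2A subunits (16 bins). Both had 0 bins called between KO and WT by edgeR in input, in H2AX and in female gH2AX. In these comparisons 0 to 3 bins of a list were at an unadjusted p under 0.05. Of all bins, 0.152% to 1.01% were called and 1362 to 3806 bins were at that level. Counts of 0 in lists this short thus say little about these genes. In male gH2AX 11 of the 20 and 9 of the 16 bins were called higher in KO and 0 lower. Their medians were 0.09 and 0.11, against -0.01 over all bins, of which 44.7% were called in either direction. For gH2AX over input in males, 4 of the 20 and 5 of the 16 bins were called higher and 0 lower. Of all bins, 19.6% were called in that comparison in either direction. The shares of all bins called higher or lower alone are not given here, so these counts by direction do not set the listed genes apart. In male gH2AX not set against input, the bin of Srp68, which binds the particle's RNA together with Srp72, was higher by 0.22 ± 0.03 (adjusted p = 5.79e-08). That of Srp72 was higher by 0.09 ± 0.04 (adjusted p = 0.0271). The bin of Srpr, the receptor for the particle, was higher by 0.13 ± 0.03 (adjusted p = 0.00166), while that of Sec61a1, the pore subunit of the translocon, was at 0.01 ± 0.04 (adjusted p = 0.894). For PP2A, the bin of the catalytic subunit gene Ppp2cb was higher by 0.11 ± 0.04 (adjusted p = 0.00891), and that of Ppp2ca was at 0.03 ± 0.04 (adjusted p = 0.496). All these p-values are from edgeR.

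The autosomal bins whose input level tracked the block most closely were named by the Pearson correlation of log2 CPM with the block mean over the 8 input libraries, which held 87.9 M to 253 M autosomal reads. The 5 highest had r of 0.951 to 0.959. They hold Ddi2, Agmat, Dnajc16 and Casp9 on chromosome 4, Tcerg1l on chromosome 7, Ly6g2 and Ly6f on chromosome 15, Abcd4, Vrtn and Syndig1l on chromosome 12, and no gene on chromosome 9. The highest group mean was 1.05 to 1.09 times the lowest in these bins. The block averaged 26.5 CPM in male KO and 39.7 in female KO, so the likeness of these bins to it is one of order and not of size. Each r rests on 8 libraries, and the bins were picked as the highest of all autosomal bins outside the window. Whether such r arise in a search this wide without any link to the block was not tested.

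The bins of Tenm3, Ide and Pdia5, also dosage-variable loci of these cells, were set beside the block. The Tenm3 bin changed between KO and WT females by -0.94 ± 0.04 in gH2AX, -0.97 ± 0.04 in H2AX and -0.98 ± 0.04 in input, and between KO and WT males by 0.11 ± 0.04 in gH2AX, -0.03 ± 0.04 in H2AX and -0.01 ± 0.03 in input. The Ide bin changed between KO and WT males by 0.61 ± 0.03 in gH2AX, 0.50 ± 0.03 in H2AX and 0.51 ± 0.03 in input, and between KO and WT females by -0.07 ± 0.04 in gH2AX, 0.00 ± 0.03 in H2AX and 0.03 ± 0.03 in input. The Pdia5 bin changed in males by 0.23 ± 0.03 in gH2AX, 0.13 ± 0.03 in H2AX and 0.18 ± 0.03 in input, and in females by 0.00 ± 0.04 in gH2AX, 0.06 ± 0.03 in H2AX and 0.00 ± 0.03 in input. In input, the change of each of these loci was near 0 in one of the sexes, whereas the Srp54b and Srp54c block changed in both and in opposite directions. These values too come from contrasts that chose the loci and carry no test. For neither mark was the ratio to input called between KO and WT at the 3 loci in either sex. Of all bins, 0.389% were called for gH2AX over input in females and 19.6% in males, against 0% and 0.0311% for H2AX over input. In males, gH2AX over input was at an unadjusted p under 0.05 by edgeR in 2 of the 3 bins, and in females in 1. Of all 25703 bins, 8895 in males and 3569 in females were at that level. For gH2AX over H2AX, 1 of the 3 bins was called in males, higher in KO, and 0 in females. Of all bins, 30.1% and 0.237% were called there.

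**Figure D4:**
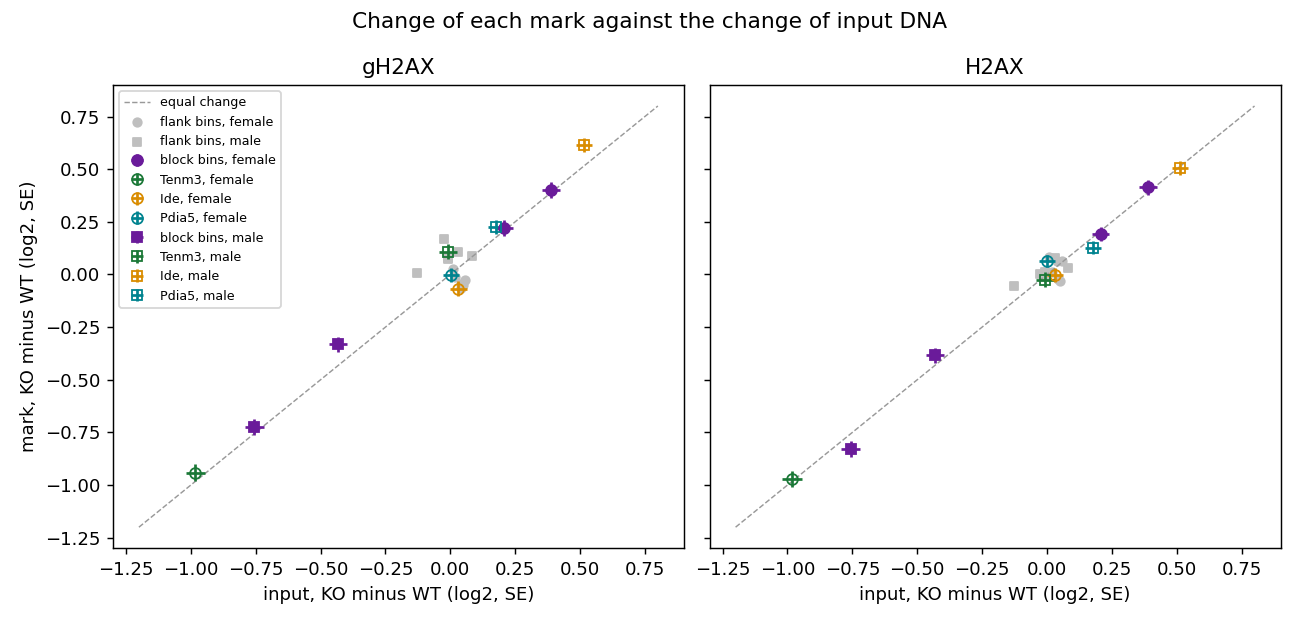
Change between KO and WT of gH2AX and of H2AX (vertical axes, log2) against that of input (horizontal axis, log2) for the block bins, the flanking bins and the bins of Tenm3, Ide and Pdia5, with circles for females and squares for males and whiskers for the SE of the block and of those 3 bins. The dashed line is equal change. The block bins lie close to the line, from -0.76 to 0.39 in input.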

How the data were processed

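The authors deposited raw read counts per 100 kb bin (whole numbers, 1 column per library). Per the submitters' processing notes, the software included Bowtie2 2.2.9, deepTools 2.4.2, FastQC 0.11.3, MACS2 2.2.7.1, SAMtools 0.1.19 and Trimmomatic 0.36, with build mm10, while the handling of duplicates and of reads with several alignments is not given in the sources used here. A total of 24 further columns matched no labelled sample and were not used.

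The fits used edgeR 4.0.16 in R 4.3.3 (glmQLFit, glmQLFTest, two-sided) with a mean per group, on bins of chromosomes 1 to 19 and X that passed filterByExpr, with autosomal totals as library sizes and TMM factors from autosomal bins. KO against WT was fitted per kind of library (25702 bins for gH2AX, 25703 otherwise), and ratios over all 24 libraries. Adjustment was by Benjamini-Hochberg over all bins. SEs are the log2 change over the square root of F, and intervals are 95% intervals. Block bins held 1702 to 10724 reads per library. Replicates differed beyond counting error (chi-square per degree of freedom 2.59 to 3.87), with a biological coefficient of variation of 2.02%. Sequences and genes came from RefSeq tables, and no genome was used.

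The named bins were the 8 of the window, the 5 most alike in input, both gene lists and 3 comparison loci. The members and lists were chosen with earlier results of these data known. Alternatives were DESeq2 1.42.0 size factors and its Wald test, totals without TMM, no filter, replicate blocks, other flanks and each library left out.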

Additional observations from a re-analysis of the deposited data

Results flagged for a closer look

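The KO change of the block differed in sign between the sexes. Every female KO library was above the female WT libraries and every male KO library below the male WT libraries. The mean log2 change of both block bins was larger in females than in males by 0.840 in gH2AX, 0.909 in H2AX and 0.891 in input, and this difference was not tested, because the contrast chose the locus.

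In the flank, the KO effect on gH2AX differed between the sexes in edgeR's test of the difference. For gH2AX over input, female minus male was -0.184 in the bin of Baz1a (adjusted p = 0.0353), -0.175 in that of Prorp, Psma6 and the end of Ppp2r3c (adjusted p = 0.0488) and -0.279 in that of Psma6 and Nfkbia (adjusted p = 0.00166). For gH2AX over H2AX it was -0.192 in the bin of Baz1a (adjusted p = 0.0229) and -0.191 in that of Psma6 and Nfkbia (adjusted p = 0.0239). Of all bins, 23.1% and 28.4% were called in these comparisons, in either direction.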

How the results depend on the processing

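Of the results recomputed, 386 values under other settings kept their direction. They also kept their side of the threshold or, where no test was made, moved by less than the spread between libraries. Among them are the DESeq2 Wald values of the block for gH2AX over input and gH2AX over H2AX in females. Those values had no adjusted p and were counted as not called. Block changes between KO and WT moved by more than the spread between libraries when reads were taken relative to the 6 flanking bins: to -0.605 in male gH2AX, to 0.275 in female and -0.600 in male H2AX, and to 0.264 in female and -0.571 in male input. Without TMM the male H2AX change was -0.602. With 1 library left out, the block changes ranged from 0.287 to 0.338 in female and -0.545 to -0.507 in male gH2AX, from 0.299 to 0.308 in female and -0.612 to -0.598 in male H2AX, and from 0.282 to 0.317 in female and -0.606 to -0.577 in male input.

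Ratio changes near 0 turned sign without single libraries, with no call either way: H2AX over input in the Srp54b bin of females ranged from -0.0045 to 0.0541, gH2AX over input from -0.0176 to 0.0409 there, from -0.0335 to 0.0631 in the Srp54c and Ppp2r3c bin of females and from -0.0289 to 0.0740 in the Srp54b bin of males, and gH2AX over H2AX in the Srp54c and Ppp2r3c bin of females from -0.0230 to 0.0736. The other ratio changes of the block, none of them called, kept their sign but moved when a library was left out: H2AX over input ranged from -0.0222 to -0.00012 in the Srp54c and Ppp2r3c bin of females, and in males from -0.137 to -0.0336 in the Srp54b bin and from 0.0274 to 0.0727 in the other. In males gH2AX over input ranged from 0.0803 to 0.126 in the Srp54c and Ppp2r3c bin. gH2AX over H2AX ranged from -0.0248 to -0.0045 in the Srp54b bin of females, and in males from 0.0758 to 0.144 there and from 0.0363 to 0.0715 in the other bin. With the outermost bins as flank, the block-to-flank difference of gH2AX to input was -0.0301 (exact permutation p = 0.168). The cause was not tested.

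The count of bins called for H2AX over input in males was 8, against 14 with a block per sex, genotype and number and 0 by DESeq2 (1910 at an unadjusted p under 0.05). DESeq2 called 164 bins against 100 for gH2AX over input in females, and 170 against 61 for gH2AX over H2AX. Libraries with the same replicate number did not deviate together (r from -0.016 to 0.057 over 6 pairs and from -0.034 to 0.053 over 12). These values cannot tell whether the numbers pair samples, since noise of each library can hide a shared source, and the labels do not state it. With the replicate block, gH2AX over input in males changed by 0.0325 and 0.0987 in the Srp54b bin and the Srp54c and Ppp2r3c bin (adjusted p = 0.684 and 0.145 by edgeR), and it changed no call of either bin. It called 1 bin against 0 for H2AX over input in females. With 2 libraries a group, the 95% interval of a bin gives the ratio changes that remain possible for it, before adjustment over all bins. Small changes of the ratios may therefore have been missed.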
